A study of Mus musculus with 6 samples.

Results

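Il3, Csf2 and Csf1 encode the secreted factors IL-3, GM-CSF and M-CSF, and they were 3 of the 14597 genes counted in 12818 single T cells from mouse melanomas. The 3 genes were selected on measured values from these same cells: their levels in cells with Cd4, Cd8 and Foxp3 transcripts, their levels in each library, and how often they shared a cell with Il13 and Ifng. Those values are therefore given as a description, and no test was run on them. A cell is called Il3+, Csf2+ or Csf1+ when at least 1 unique molecular identifier (UMI, a tag that marks 1 captured RNA molecule) of that gene was counted in it.

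The cells were TCRβ+ T cells sorted from B16-F10 tumors, a melanoma line placed under the skin of Foxp3-EGFP-DTR mice, and the libraries captured the 5′ end of each transcript. In these mice the endogenous Foxp3 gene drives the human diphtheria toxin receptor and EGFP, so diphtheria toxin (DTx) removes cells that express Foxp3. All 6 samples shared this genotype, and by the labels 3 samples were from animals given PBS and 3 from animals given DTx. By the study's methods its mice were young adults, and the labels give no age for single samples. Cells carried a library number from 1 to 6 that no label ties to a treatment, so the data were handled as 1 pool of 6 libraries, no library was assigned to PBS or DTx, and the treatments were not compared.

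IL-3 and GM-CSF bind receptors that pair a private alpha chain (Il3ra, Csf2ra) with the shared beta common chain, which IL-5 also uses, and signal through JAK2 and STAT5. Activated T cells are a known source of both, and both act mainly on myeloid cells, mast cells, basophils and eosinophils. M-CSF binds an unrelated receptor tyrosine kinase, Csf1r, and supports the survival and growth of monocytes and macrophages.

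Il3 and Csf2 lie side by side and Csf1 on another chromosome, and the DNA in front of each gene is shown because Il3 and Csf2 were found in the same cells far more often than their separate shares would give. In GENCODE M21 on GRCm38, all 3 genes are protein-coding and on the minus strand: Csf2 (ENSMUSG00000018916.5) at chr11:54247271-54249667, Il3 (ENSMUSG00000018914.5) at chr11:54265303-54267277 and Csf1 (ENSMUSG00000014599.10) at chr3:107741048-107760469. The start of Il3 is 17.61 kb from the start of Csf2. The 250 bases before the RefSeq start of each gene (GRCm38.p6, minus strand) are printed 5′ to 3′, with capitals marking matches on either strand to the NFAT core GGAAA, the AP-1 motif TGANTCA or the GATA core AGATAA, which do not overlap one another here.
Il3 promoter, chr11:54267280-54267529: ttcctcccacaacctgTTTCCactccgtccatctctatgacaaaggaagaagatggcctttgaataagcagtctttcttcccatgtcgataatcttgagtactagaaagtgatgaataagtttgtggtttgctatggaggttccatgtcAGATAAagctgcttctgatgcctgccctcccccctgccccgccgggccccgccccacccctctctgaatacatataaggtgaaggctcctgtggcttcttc
Csf2 promoter, chr11:54249900-54250149: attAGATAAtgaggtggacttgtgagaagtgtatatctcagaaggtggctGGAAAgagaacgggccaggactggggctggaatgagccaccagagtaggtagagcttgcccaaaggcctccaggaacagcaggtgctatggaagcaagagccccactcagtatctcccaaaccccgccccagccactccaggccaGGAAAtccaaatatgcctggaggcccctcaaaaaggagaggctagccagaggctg
Csf1 promoter, chr3:107760470-107760719: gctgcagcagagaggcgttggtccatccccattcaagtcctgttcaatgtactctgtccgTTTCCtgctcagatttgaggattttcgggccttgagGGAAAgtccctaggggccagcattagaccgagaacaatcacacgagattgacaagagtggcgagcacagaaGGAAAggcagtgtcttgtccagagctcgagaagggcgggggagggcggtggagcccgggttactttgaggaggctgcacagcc
The Il3 window held 1 NFAT core and 1 GATA core, the Csf2 window 2 NFAT cores and 1 GATA core, and the Csf1 window 3 NFAT cores and no GATA core. No window held the AP-1 motif. Among 27025 promoter windows of the same length, 55.6% held the NFAT core, 10.3% the GATA core and 6.87% the AP-1 motif, so these matches are a description of the letters and not of binding. The RefSeq start of Csf2 lies 232 bases upstream of the GENCODE start, and the sequence between them is not part of the window shown.

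The libraries held 1768 to 2640 cells each, with a median of 610 to 2499.5 UMIs per cell, and the deepest were libraries 4 and 5. Cells were gated on transcripts: 1205 CD4+ Tconv cells (a Cd4 UMI and none of Cd8a, Cd8b1 or Foxp3), 4497 CD8+ T cells (a Cd8a or Cd8b1 UMI and none of Cd4 or Foxp3), 97 Foxp3+ cells without Cd8, 163 cells with both Cd4 and Cd8, and 6838 ungated cells in which none of the 4 genes was found. At least 1 UMI of Cd3e, Cd3d, Cd3g, Trac, Trbc1 or Trbc2 was present in 95.4% of all cells. Of the Foxp3+ cells, 49, 30 and 17 were in libraries 1, 2 and 3 and 1 was in library 6. A set of 2352 naive-gated cells, with at least 2 of 5 naive T cell genes (Ccr7, Lef1, Tcf7 and S1pr1 among them) and none of Il2ra, Tnfrsf4, Tnfrsf9, Pdcd1, Gzmb, Foxp3 and Mki67, served as the background level that free RNA can give. Most of them were in libraries 1, 2 and 3 (517, 1347 and 327 cells), and libraries 4, 5 and 6 held 82, 40 and 39, so the background is loosely bounded there. No doublet caller was run, and the cells with both Cd4 and Cd8, whose median depth was 4223 UMIs against 1622 in CD4+ Tconv and 1708 in CD8+ T cells, were kept apart. Across libraries 76 barcodes were found in 2 libraries. Without those 152 cells, 13 Il3+, 482 Csf1+ and 239 Csf2+ cells were left, and in 0 cases was 1 of the 3 genes found in both cells of such a pair.

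Il3 was the rarest of the transcripts, with 56 UMIs in 13 cells. Libraries 4, 5 and 6 held 9, 1 and 3 Il3+ cells with 49, 2 and 5 UMIs. None was found in libraries 1, 2 and 3, where counts of 0 allow shares of up to 0.141%, 0.114% and 0.132%. Of the 13 cells, 6 were CD4+ Tconv (0.498%, 95% Clopper-Pearson interval 0.183 to 1.08), 4 were CD8+ T (0.0889%), 1 had both Cd4 and Cd8, and 2 were ungated. All 4 Il3+ CD8+ T cells carried at least 2 Cd8 UMIs. No Il3 UMI was seen in the 97 Foxp3+ cells, which allows up to 3.09%, nor in the 2352 naive-gated cells, which allows up to 0.128%. The intervals cover counting error only, and because cells of 1 library share their source they say nothing about the spread between animals. Within the Il3+ cells the transcript was unevenly spread: the highest count was 14, and the 5 cells with the most held 44 UMIs, or 78.6% of the total.

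Csf2 was found in 247 cells (1.93%) with 1461 UMIs, and over the whole pool CD4+ Tconv cells carried more of it than CD8+ T cells. Of the CD4+ Tconv cells, 66 were Csf2+ (5.48%, 4.26 to 6.92), against 70 CD8+ T cells (1.56%, 1.22 to 1.96). By library, the CD4+ Tconv share was 1.38%, 0%, 0%, 7.87%, 10.9% and 4.26% in libraries 1 to 6, and the CD8+ T share was 0.482%, 0.113%, 0.995%, 1.57%, 2.19% and 3.37%. The CD4+ Tconv share was thus the higher in libraries 1, 4, 5 and 6 and the lower in libraries 2 and 3, and the ranges over libraries overlapped. On the scale of UMIs per 10000 the pooled levels were 1.65 (exact Poisson interval 1.5 to 1.81) in CD4+ Tconv and 0.289 (0.256 to 0.324) in CD8+ T cells. The pooled share was 7.36% (3.86 to 12.5) in cells with both Cd4 and Cd8, 1.45% (1.18 to 1.76) in ungated cells and 0 of 97 in Foxp3+ cells, which allows up to 3.09%. No order beyond CD4+ Tconv above CD8+ T is read from the pooled shares, because the gates fell unevenly over the libraries. By library, ungated cells gave 0.550%, 0.191%, 0.234%, 2.18%, 4.76% and 3.85%, above CD8+ T cells in libraries 1, 2, 4, 5 and 6 and below them in library 3. Cells with both Cd4 and Cd8 gave 5.13%, 6.52% and 14.3% in libraries 4, 5 and 6, above CD4+ Tconv cells in library 6 and below them in libraries 4 and 5. In naive-gated cells, whose median depth was 1049 UMIs, the share was 0.0850%, from 1 of 1347 cells in library 2 and 1 of 40 in library 5.

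Thinning every cell to 1000 UMIs, which leaves out shallower cells (295 of the CD4+ Tconv and 762 of the CD8+ T cells), lowered the Csf2 share to 3.19% in CD4+ Tconv and 0.910% in CD8+ T cells, with the former still above the latter. At that depth the CD4+ Tconv share was 0% in libraries 1, 2 and 3 and 4.08%, 4.69% and 3.03% in libraries 4, 5 and 6. Libraries 1 to 3 then rested on 88, 79 and 40 CD4+ Tconv cells, so a count of 0 there limits little.

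Csf2 RNA was concentrated in few cells. Of the 247 Csf2+ cells, 127 (51.4%) had 1 UMI, while 30 cells had 10 or more and together held 976 UMIs (66.8%). The 5 highest cells carried 132, 123, 110, 83 and 54 Csf2 UMIs, or 34.4% of the total. The 30 high cells were not of 1 lineage: 8 were CD4+ Tconv, 7 CD8+ T, 3 had both Cd4 and Cd8, and 12 were ungated. Libraries 3, 4, 5 and 6 held 2, 4, 17 and 7 of them. Their median depth was 4098 UMIs, and each had at least 2 UMIs of the T cell markers. None had a UMI of the γδ T, myeloid, B cell, NK, mast cell, melanoma or erythroid markers, and 1 had a stromal and endothelial marker UMI. The marker groups not found were present in 0.0858% to 1.69% of all cells, so a count of 0 among 30 cells limits little. Counting intervals on UMIs are therefore too narrow for Csf2, since 1 cell can add as many as 132 UMIs.

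Among the high cells, some held type 2 cytokine transcripts and some Ifng. A UMI of Il4, Il5 or Il13 was present in 12 of the 30, Ifng in 16, both in 5, and none of these 4 cytokine genes in 7. The highest cell, a CD4+ Tconv cell of library 4, held 14 Il3, 132 Csf2, 4 Il13, 3 Il4 and 12 Ccl1 UMIs and no Ifng. The next, an ungated cell of library 5, held 123 Csf2 and 73 Ccl1 UMIs with no Il3, Il4, Il13 or Ifng. The third, from library 4 with both Cd4 and Cd8, held 110 Csf2 and 17 Ifng UMIs. Ccl1, the ligand of the chemokine receptor CCR8, was found in 14 of the 30 cells, and Gzmb and Mki67 in 12 each.

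**Figure D1:**
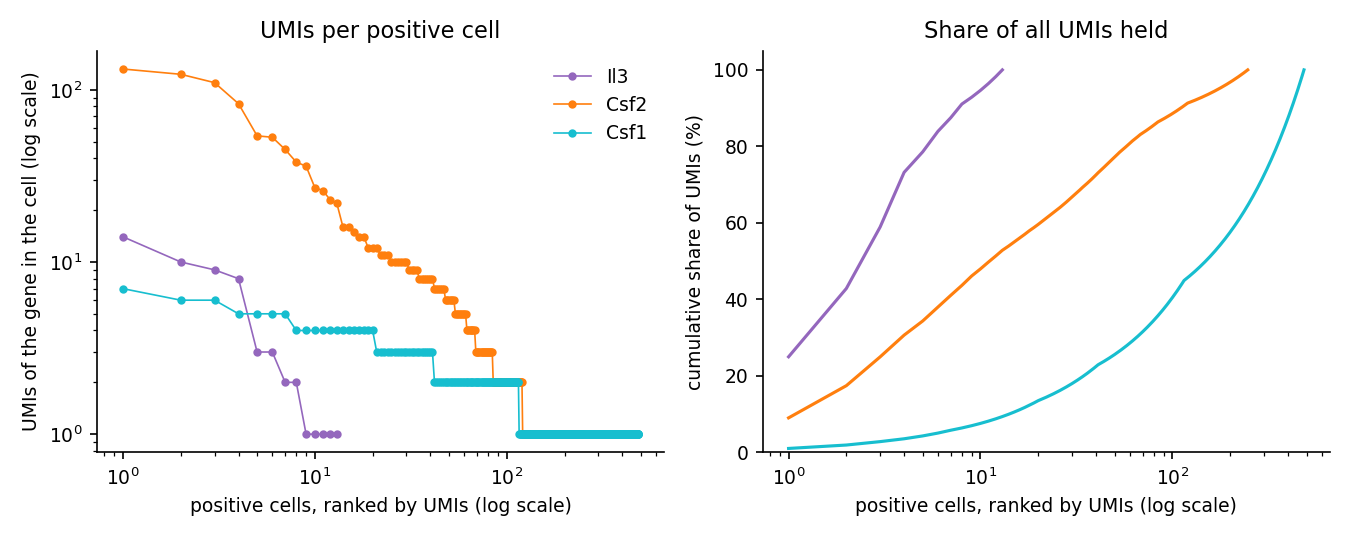
Left, UMIs of Il3, Csf2 and Csf1 in each positive cell against the cell's rank (both axes log scale); right, cumulative share of each gene's UMIs (%) against rank (log scale). The Csf2 curve starts at 132 UMIs and the Il3 curve at 14, whereas no cell held more than 7 Csf1 UMIs.

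Csf1 was found in 485 cells (3.78%) with 672 UMIs, spread thinly: 370 of these cells (76.3%) had 1 UMI and the highest count was 7. The CD4+ Tconv share was 9.21% (7.64 to 11, 111 cells) and the CD8+ T share 3.67% (3.14 to 4.26, 165 cells). By library it was 0.690%, 0.662%, 2.44%, 13.8%, 16.7% and 7.98% among CD4+ Tconv cells, and the CD8+ T values were 0%, 0.113%, 0.746%, 7.38%, 7.02% and 4.38%. The CD4+ Tconv share was the higher in 6 of 6 libraries, while the ranges over libraries overlapped. In libraries 1, 2 and 3 that order rests on 1, 1 and 3 Csf1+ CD4+ Tconv cells against 0, 1 and 3 CD8+ T cells. The levels were 0.628 (0.536 to 0.732) and 0.235 (0.206 to 0.267) UMIs per 10000. The pooled share was 16% (10.7 to 22.5) in cells with both Cd4 and Cd8, 2.65% (2.28 to 3.06) in ungated cells and 2.06% (0.251 to 7.25) in Foxp3+ cells. Ungated cells gave 0.550%, 0.127%, 0.701%, 8.88%, 8.10% and 4.85% by library, above CD8+ T cells in libraries 1, 2, 4, 5 and 6 and below them in library 3, the reverse of the pooled order. Cells with both Cd4 and Cd8 gave 25.6%, 19.6% and 16.7% in libraries 4, 5 and 6, above CD4+ Tconv cells in each. The 2 Csf1+ cells among Foxp3+ cells, 1 in library 3 and 1 in library 6, set no place in an order. Naive-gated cells gave 0.213% (0.0691 to 0.495), an interval below the pooled ones of the other gates named here except Foxp3+. In libraries 4, 5 and 6 alone they gave 2 of 82, 0 of 40 and 0 of 39 cells.

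Thinned to 1000 UMIs, Csf1 was found in 6.04% of CD4+ Tconv and 1.66% of CD8+ T cells. In libraries 4, 5 and 6 the thinned CD4+ Tconv shares were 5.10%, 10.8% and 6.06%, and in libraries 1, 2 and 3 they were 1.14%, 0% and 2.5%, each from at most 1 cell. The thinned CD8+ T shares in libraries 1 to 6 were 0%, 0.144%, 0.556%, 1.88%, 2.84% and 2.82%. In library 2 the order was thus reversed, on 0 CD4+ Tconv cells against 1 CD8+ T cell. Across all cells Csf1+ shares in libraries 1 to 6 were 0.377%, 0.152%, 0.838%, 9.39%, 9.16% and 5.22%, and Csf2+ shares 0.565%, 0.152%, 0.397%, 2.94%, 4.58% and 3.89%. Libraries 4, 5 and 6 thus stood above the others for Csf1 and Csf2, while the Il3 share of library 5 was under what counts of 0 allow in libraries 1, 2 and 3, and depth and cell makeup differed between the libraries as well. Their part in this was not tested beyond the thinning.

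**Figure D2:**
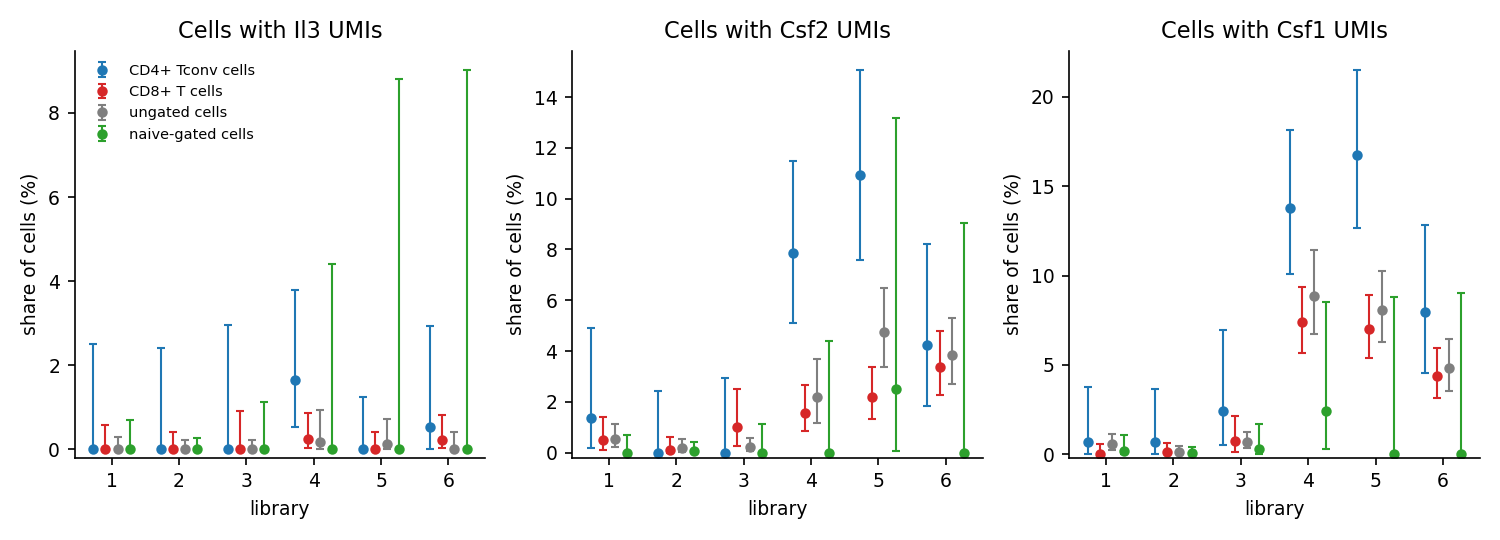
Share of cells (%) with UMIs of Il3, Csf2 and Csf1 in each of the 6 libraries, by gate, with 95% Clopper-Pearson intervals as bars. CD4+ Tconv points reach 10.9% for Csf2 and 16.7% for Csf1 in library 5, and naive-gated points stay at or below 2.5% with wide bars where few such cells were counted.

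Summed over libraries, CD4+ Tconv cells held more of each transcript than their UMI totals would give at the CD8+ T level of the same library. For Csf1, 164 UMIs were found against 69.9 expected, a ratio of 2.35 (2.0 to 2.74), and the ratios in libraries 4, 5 and 6 were 1.91, 2.64 and 2.65. For Csf2, 430 were found against 77, a ratio of 5.59, with 20.9, 3.61 and 2.22 in libraries 4, 5 and 6. Library 3 went the other way, with 0 Csf2 UMIs found against 4.77 (0 to 0.774 as a ratio), library 2 had 0 against 0.136, and library 1 had 3 against 0.670. For Il3, 30 were found against 4.71, a ratio of 6.37 that rests on 6 and 4 cells. The Csf1 ratio thus varied little between libraries 4, 5 and 6 and the Csf2 ratio widely. Without library 4 the Csf2 ratio was 3.04, without library 5 it was 8.53, and counted in cells in place of UMIs it was 3.36. Asking for 2 Cd4 or Cd8 UMIs in place of 1, which leaves 261 CD4+ Tconv and 3113 CD8+ T cells, raised it to 12.1 and the Il3 ratio to 14.8.

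Il3 was found almost wholly inside Csf2+ cells. Co-detection was counted as cells with both genes against the number expected if the genes were independent within each library and depth quartile. Il3 and Csf2 shared 11 cells where 0.664 were expected, a ratio of 16.6 (8.27 to 29.6), with 7, 1 and 3 of the cells in libraries 4, 5 and 6. These are 84.6% of the Il3+ cells and 4.45% of the Csf2+ cells, and they held 53 of the 56 Il3 UMIs. Both lineages showed it: 5 cells against 0.729 among CD4+ Tconv and 4 against 0.159 among CD8+ T cells. In CD8+ T cells every Il3+ cell was Csf2+, so no ratio against Csf2- cells can be formed there. The Csf2 counts in the 11 cells ran from 1 to 132, and 4 of them were among the 30 high cells.

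Csf1 overlapped with Csf2 less closely. Both were found in 47 cells against 21.3 expected, a ratio of 2.20 (1.62 to 2.93), which is 19.0% of the Csf2+ and 9.69% of the Csf1+ cells. Libraries 4, 5 and 6 held 13, 22 and 12 of them. Within CD4+ Tconv cells the ratio was 2.02 (19 cells), and within CD8+ T cells it was 2.42 (12 cells). Il3 and Csf1 shared 3 cells against 1.42 expected, all in library 4, and the interval of the ratio, 0.436 to 6.18, included 1. Of the 685 cells with any of the 3 transcripts, 1 cell had all 3.

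Of the cytokines used to select the genes, Il13 (a type 2 cytokine) shared more cells than expected with Il3 and Csf2, while the ratios with Ifng (the defining cytokine of type 1 responses) lay nearer 1. Il3 and Il13 shared 7 cells against 0.942 expected, a ratio of 7.43 (2.99 to 15.3), but all 7 were in library 4, and without that library the count was 0. Within CD4+ Tconv cells the ratio of Il3 with Il13 was lower, at 3.49, and rests on fewer cells. Csf2 and Il13 shared 32 cells against 10.8, a ratio of 2.97 (2.03 to 4.20), with 1, 12, 15 and 4 of the cells in libraries 3 to 6. Within CD4+ Tconv cells that ratio was 2.0 (1.19 to 3.16), and within CD8+ T cells 4 cells were found against 0.458. Csf1 and Il13 shared 29 cells against 20.3, a ratio of 1.43 (0.959 to 2.06). With Ifng, the ratios were 0.756 (0.245 to 1.76) for Il3, 1.02 (0.836 to 1.23) for Csf2 and 1.18 (1.03 to 1.33) for Csf1.

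The positive cells were also sorted by which of these cytokines they held, with no matching for library or depth. Of the 247 Csf2+ cells, 94 (38.1%) had Ifng and none of Il4, Il5 and Il13, 47 (19.0%) had a type 2 cytokine without Ifng, 16 (6.48%) had both and 90 (36.4%) had neither. The 66 Csf2+ CD4+ Tconv cells split into 20, 19, 8 and 19, and the 70 Csf2+ CD8+ T cells into 47, 5, 3 and 15. Of the 8 Csf2+ CD8+ T cells with a type 2 cytokine, 5 had at least 2 Cd8 UMIs. Of the Csf1+ cells, 218 (44.9%) held Ifng alone, 44 (9.07%) a type 2 cytokine alone, 22 both and 201 neither. Of the 13 Il3+ cells, 7 held a type 2 cytokine alone, 4 both, 1 Ifng alone and 1 neither. Ifng itself was present in 23.5% of all cells, but unevenly over libraries, so the ratios matched by library and depth are the ones to compare.

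Ratios with other cytokine and chemokine genes also differed between the 3 transcripts. Il4 was found with Il3 in 9 cells (ratio 6.21) and with Csf2 in 51 (2.57), and with Csf1 in 54 (1.38). Ccl1 was found with Il3 in 9 cells (10.9), with Csf2 in 56 (4.68, 3.53 to 6.07) and with Csf1 in 38 (1.90). Ccr8 gave 5.62 with Il3, 2.09 with Csf2 and 1.62 with Csf1. The order Il3, Csf2, Csf1 thus held for Il4, Ccl1 and Ccr8, and also for Il13, although no test of the differences was made. For Il4 the intervals with Il3 (2.84 to 11.8) and with Csf2 (1.92 to 3.38) overlapped. So did those for Il13 (2.99 to 15.3 and 2.03 to 4.20), whose ratio with Il3 was 0 without library 4. The groups were not separate either, since 11 of the 13 Il3+ cells were also Csf2+. Il2, another T cell growth factor, was found with Csf2 in 8 cells (2.66) and with Il3 in none, where 0.147 were expected. Gzmb, a granzyme of cytotoxic cells, was found with Csf2 in 93 cells against 122 expected (0.764, 0.616 to 0.935). The ratios of this paragraph were taken over all cells and were not matched for lineage, whose part was not tested.

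**Figure D3:**
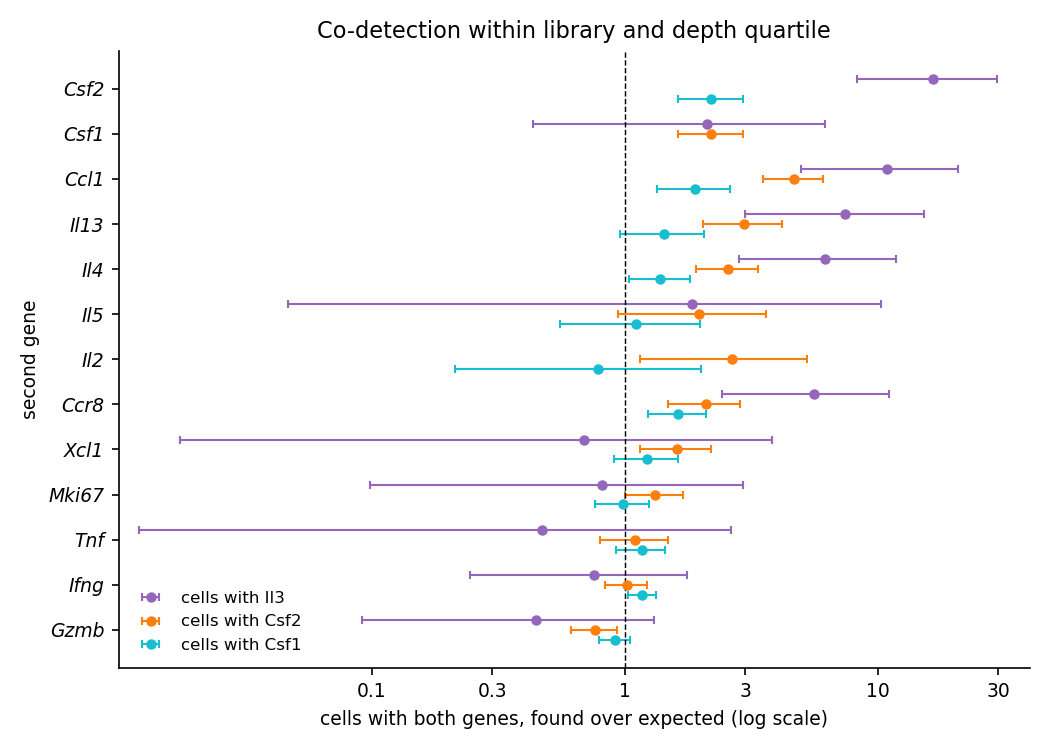
Cells holding both genes, found over expected within library and depth quartile (log scale), for Il3, Csf2 and Csf1 against each second gene; bars are 95% exact Poisson intervals on the count found, the dashed line marks a ratio of 1, and pairs found in 0 cells are not drawn. Il3 with Csf2 lies at 16.6, and the Csf2 points fall from 4.68 for Ccl1 to 0.764 for Gzmb.

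Il3 and Csf2 sit at 1 end of the type 2 cytokine cluster, and the neighbouring genes were examined by position. GENCODE places 25 protein-coding genes with a start within 750 kb of the Csf2 start, and 22 of them had a row in the count table. Among genes found with Csf2 in at least 10 cells, the cytokine genes had the highest ratios: Il3 at 16.6, Il13 at 2.97 (615 kb away) and Il4 at 2.57 (631 kb away), while Il5, 529 kb away, gave 1.97 with an interval of 0.945 to 3.62. Co-detection with Il13 was part of how the genes were selected, so its place here is not independent. The limit of 10 shared cells depends on the count that is ranked. Il3, with 0.664 cells expected, passed it only by being high, and Il5 passed with 10 cells (5.08 expected). It left out, among others, Slc22a21 at 4.61 from 2 cells (0.559 to 16.7) and Kif3a at 1.72 from 4 cells (0.467 to 4.39). Lineage was not matched. The other genes with at least 10 shared cells had ratios of 0.775 (Cdc42se2) to 1.33 (Gm12216), with intervals that included 1. Rad50, a DNA repair gene between Il13 and Il5, gave 1.16 (0.795 to 1.64). Irf1, an interferon-induced transcription factor, gave 1.01 (89 cells against 88.4), Rapgef6 0.977 and Hint1 1.05. Fnip1, closer to Csf2 than the type 2 cytokine genes, gave 1.28 (0.820 to 1.90).

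**Figure D4:**
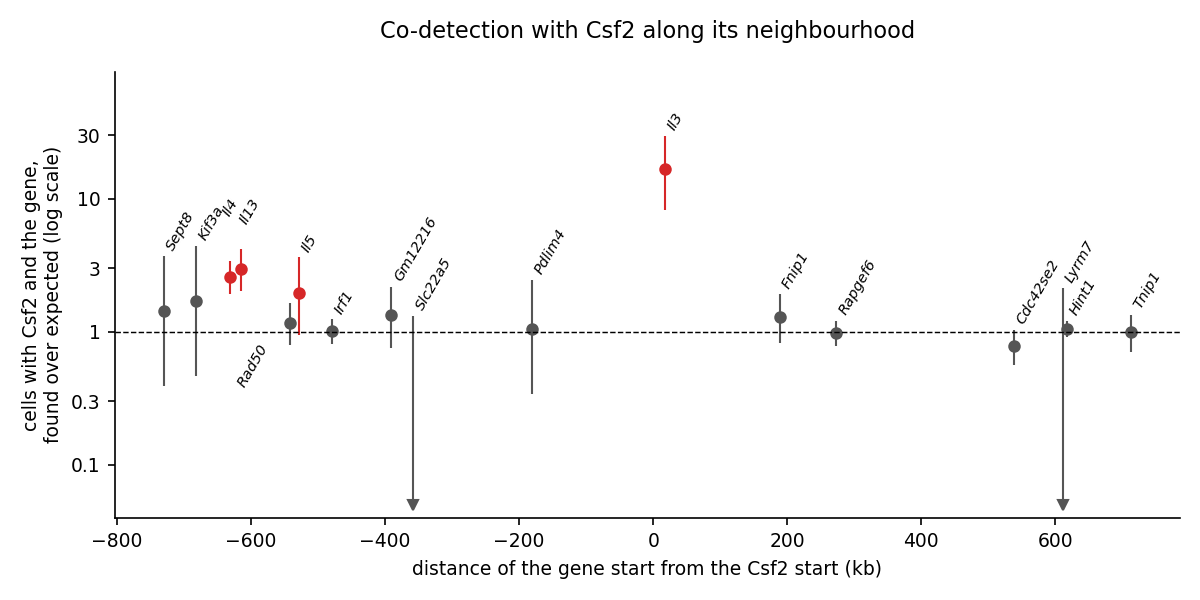
Co-detection with Csf2, found over expected cells (log scale), against the distance of each gene start from the Csf2 start (kb); red marks Il3, Il4, Il5 and Il13, grey other genes with at least 1 cell expected, bars 95% exact Poisson intervals and triangles genes found with Csf2 in 0 cells. Il3 stands at 16.6, whereas Irf1, Rapgef6, Hint1 and Tnip1 lie between 0.977 and 1.05.

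Genes whose cells most resembled those of each transcript were ranked by the same ratio, among genes found in at least 100 cells and in at least 10 cells with the transcript. A gene with fewer than 10 shared cells expected entered only by exceeding that number, so a rare gene that was ranked had to be high. For Csf2, 6473 genes were compared and the leaders were Cd70 (4.95, 30 cells), Ccdc184 (4.90), Ccl1 (4.68), Cd83 (4.16), Dusp14 (3.75), Cd81 (3.71), Mir155hg (3.67) and Igfbp7 (3.52). Cd70 is a TNF family ligand of activated lymphocytes, Cd83 an activation marker and Mir155hg the host transcript of miR-155. For Csf1, 7752 genes gave Pcca (2.66), Zbtb48 (2.58), Gstm5 (2.57), Cd70 (2.39), Tmem147os (2.35), Ccdc184 (2.33), Itgae (2.22) and Csf2 itself (2.20). Cd70 and Ccdc184 were on both lists, and Itgae encodes the CD103 integrin chain of tissue-resident T cells. For Il3, 348 genes could be compared, led by Csf2 (16.6), Lgals7 (5.53), Rbpj (3.83), Rasgrp1 (2.71), Itm2c (2.67), Cd40lg (2.51), Tnfrsf4 (2.46) and Orai1 (2.45), from 10 to 12 cells each. With 0.664 to 4.87 cells expected, each of these leaders entered only by being high, and no theme is read from them. Rasgrp1 and Orai1 act in T cell receptor signalling, and Cd40lg and Tnfrsf4 (OX40) are induced by it.

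The rest of the transcriptome was then compared between positive and negative cells, with library and depth quartile matched, as UMIs found over UMIs expected. With no replicated groups a gene was counted as higher or lower when past 2-fold, among genes with at least 20 UMIs found plus expected, and gene groups are read against the share of all genes past that fold. A gene with few UMIs expected enters only when many are found, so a rare gene that was measured had to be higher. Without a test these are descriptions of this pool of cells.

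Csf2+ CD8+ T cells held more RNA of genes induced by T cell activation. Their median depth was 4017.5 UMIs against 1696 in Csf2- cells, which the matching by depth quartile allows for in part. Of the activation-induced surface and secreted genes, 6 of 13 measured were over 2-fold higher and none lower, against 1.73% of 3473 genes higher and 0.95% lower, and their median ratio was 1.96 (all genes 1.03). Xcl1, a chemokine that attracts cross-presenting dendritic cells, was 7.59-fold higher (358 UMIs found, 47.1 expected, 24 cells), and 6.06-fold without the cell that held most of it. Ccl1 was 8.10-fold higher (21 cells), Tnfsf11 (RANKL) 4.68-fold, Tnfrsf9 (4-1BB) 2.75-fold and Tnfrsf4 2.30-fold. Of the T cell receptor induced transcription factors, 4 of 17 were over 2-fold higher and 14 of 17 above 1: Irf8 at 3.24, Nr4a2 at 2.67, Nr4a3 at 2.49 and Rel at 2.29. Of the Th2 list, Ccr8 stood at 5.03 (12 cells) and Il13, itself used in selecting the genes, at 14.8 from 4 cells, but both were measured only through their counts in Csf2+ cells (4.18 and 1.48 UMIs expected).

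The other groups in Csf2+ CD8+ T cells had few genes past the fold, apart from the naive genes. Of 8 type 1 genes none was over 2-fold higher and Ccl5, a chemokine of memory and effector CD8 cells, was lower at 0.489 (0.502 with at least 2 Cd8 UMIs), while Ifng stood at 1.65. None of 6 cytotoxic genes was past the fold in either direction, and Gzmb stood at 1.0. Of 6 naive genes, S1pr1 (0.391) and Lef1 (0.485) were lower, and Ccr7 was higher at 3.22, with 81 UMIs in 11 cells. None of 10 JAK and STAT5 pathway genes, 7 proliferation genes, 5 checkpoint genes or 5 AU-rich mRNA decay genes was past the fold, and Cish, a STAT5 target, stood at 1.61.

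In CD4+ Tconv cells the Csf2+ cells differed less by these groups, against a background of 2.04% of 3234 genes higher and 2.04% lower. Activation-induced genes gave 2 of 11 over 2-fold higher, Ccl1 at 4.90 (13 cells, 3.56 without the leading cell) and Tnfsf11 at 2.13 (1.58 without it), with Il2ra (CD25) at 1.75. Of 16 T cell receptor induced factors, Nr4a3 was higher at 2.44 (21 cells) and Egr1 lower at 0.395, and 12 were above 1. Of 7 Th2 genes none was over 2-fold higher: Il4 stood at 1.79 (1.23 without its leading cell), Il13 at 1.34, and Il5 at 0.487 from 4 cells. This changed when at least 2 Cd4 UMIs were asked for, an alternative added after seeing the data that leaves 261 cells: Il4 stood at 2.53, Il13 at 2.34 and Il5 at 0.871. Ifng stood at 0.578 in UMIs, although 28 of the 66 cells held it against 25.8 expected. Lower genes were Ccl5 (0.274) and Cxcr3 (0.314) among 6 type 1 genes, Gzma (0.373) among 4 cytotoxic genes, S1pr1 (0.278) among 4 naive genes and Ccnb2 (0.488) among 7 proliferation genes. None of 10 JAK and STAT5 genes, 5 AU-rich mRNA decay genes, 4 checkpoint genes or 4 Treg genes was past the fold, although with at least 2 Cd4 UMIs Bcl2l1 stood at 2.63 from 8 UMIs. At that gate the type 1 genes Tbx21 (4.65), Ifng (0.210) and Ccl5 (0.541), the factors Nfkb1 (2.06), Fos (0.352) and Jun (0.448), and Klf2 (0.204), Mki67 (0.292), Cdk1 (0.441) and Ccnb2 (0.542) also changed their side of the fold. The count of genes over 2-fold higher, 66, was 33 without library 5.

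**Figure D5:**
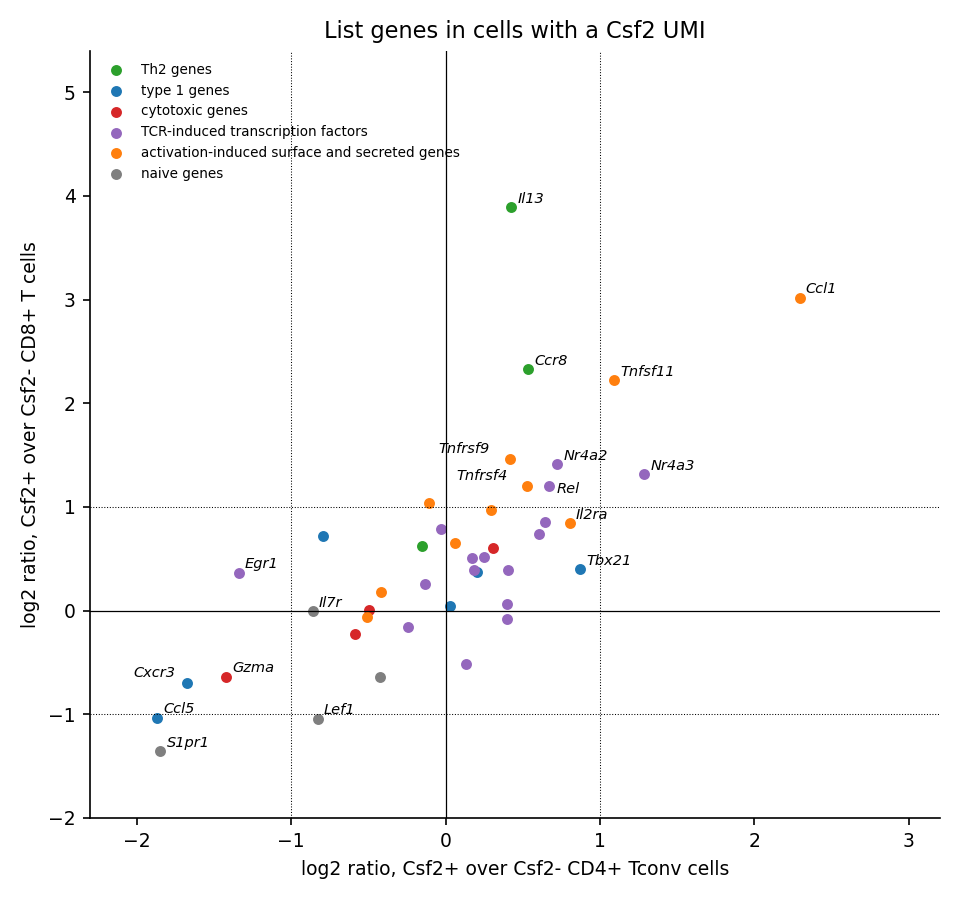
log2 ratio of UMIs found over expected in Csf2+ against Csf2- cells, CD4+ Tconv cells on the x axis and CD8+ T cells on the y axis, for 43 genes of 6 fixed lists measured in both; dotted lines mark 2-fold. Ccl1, Tnfsf11 and Nr4a3 lie past 2-fold higher in both lineages, and Ccl5 and S1pr1 past 2-fold lower in both.

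Taking all 12818 cells, 1.35% of 6595 genes were over 2-fold higher in Csf2+ cells and 1.2% over 2-fold lower. Of 14 activation-induced genes 4 were higher, Ccl1 (7.24), Xcl1 (4.03), Tnfsf11 (3.68) and Tnfrsf9 (2.05), and of 9 Th2 genes Il4 (2.90), Il10 (2.02) and Ccr8 (2.01) were higher, as was Egr3 (3.83) of 18 T cell receptor induced factors. Il10 rested on 1 cell with 13 of its 18 UMIs. The naive gene Lef1 (0.486) and the cytotoxic genes Gzmk (0.360) and Gzma (0.448) were lower, as were the type 1 genes Ccl5 (0.366) and Cxcr3 (0.462). Lineage was not matched in this comparison over all cells.

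Csf1+ cells were compared with Csf1- cells within each lineage, and several genes past the fold fell within it without their leading cell. In CD4+ Tconv cells 1.42% of 3599 genes were over 2-fold higher and 0.917% lower. Of 8 type 1 genes, Tbx21, the T-bet transcription factor of Th1 cells, was higher at 2.49 (21 cells, 1.97 without its leading cell) and Lta at 2.56 (1.29 without it), with Tnf at 1.74 and Ifng at 1.32. Havcr2, the inhibitory receptor TIM-3, was the 1 of 4 checkpoint genes past the fold, at 3.43 (28 cells). Tcf7, a transcription factor of naive and stem-like T cells, was lower at 0.168 with 3 UMIs found, as were Gzma (0.253), Areg (0.373) and Ccl1 (0.497). None of 16 T cell receptor induced factors or 7 Th2 genes was past the fold.

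In CD8+ T cells 1.18% of 5439 genes were over 2-fold higher in Csf1+ cells and 0.68% lower. Of 5 Th2 genes 3 were higher, but the largest, Il4 (6.73), had 54 of its 59 UMIs in 1 cell and stood at 0.573 without it, while Ccr8 (3.03, 20 cells) and Il1rl1 (2.59) were at 2.78 and 1.43 without their leading cells. Of 13 activation-induced genes 3 were higher, Spp1 (20.6, from 3 cells), Ccl1 (3.23) and Areg (2.19), and these stood at 2.79, 1.67 and 0.948 without their leading cells. Gzmk (0.495), Tcf7 (0.490) and Ccr7 (0.480) were lower, and Ifng stood at 1.71 in 102 of the 165 cells. Over all cells, 0.804% of 7837 genes were higher and 0.625% lower, and the naive genes Tcf7 (0.291) and Ccr7 (0.383) were lower. None of 17 T cell receptor induced factors was past the fold, and 16 were above 1.

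The 13 Il3+ cells could be compared at 719 genes, of which 10.4% were over 2-fold higher and 4.59% lower, a background that is high because few cells enter. Beside it, 7 of 10 activation-induced genes were higher, among them Ccl1 (21.2), Tnfsf11 (15.9), Tnfrsf4 (5.56) and Cd40lg (4.36), each in 9 to 12 cells, and Cd69 (0.480) and Ccl4 (0.145) were lower. Of 9 T cell receptor induced factors 6 were higher, including Rel (5.85) and Nr4a1 (4.40), and Jun was lower (0.286). A gene with few UMIs expected in 13 cells was measured only when many were found, so neither count of higher genes is read as enrichment. Of 14 Th2 genes 3 could be measured, Il4 (15.8, 9 cells), Il13 (5.67, 7 cells) and Gata3 (2.25, 8 cells), and with 6.15, 7.05 and 9.76 UMIs expected each was measured only through its count in Il3+ cells. Both type 1 genes were lower, Ifng (0.202) and Ccl5 (0.0580), as were the 3 cytotoxic genes Nkg7 (0.249), Gzmb (0.227) and Gzma (0.0752). Lineage was not matched, and the Il3+ cells included 6 CD4+ Tconv and 4 CD8+ T cells, against 1205 and 4497 in the pool. The part of lineage was not tested. Counted in cells, Ifng was found in 5 of the 13, a ratio of 0.756 (0.245 to 1.76). Of 5 JAK and STAT5 genes Jak2 (5.11) and Cish (2.08) were higher. Since 9 of the 13 cells came from library 4, these values describe mainly that library.

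Of the receptors of the family, Il3ra, Csf2ra and Csf1r were counted in the same cells. Il3ra was found in 417 cells, 4.81% of CD4+ Tconv, 4.29% of CD8+ T and 10.3% of Foxp3+ cells, against 0.510% of naive-gated cells. These pooled shares mix libraries, so no order is read from them. In libraries 4 to 6 the shares were 5.73% of CD4+ Tconv, 6.18% of CD8+ T and 1.86% (0.386 to 5.35) of naive-gated cells. Libraries 1 to 3 gave 3.10%, 1.73% and 0.411%, and 10.4% of Foxp3+ cells. Csf2ra was found in 71 cells, 1.41% of CD4+ Tconv and 0.534% of CD8+ T cells. Csf1r, the M-CSF receptor, was found in 4 cells with 4 UMIs. Of the other ligand of the beta common family, Il5, there were 507 UMIs in 116 cells, 2.66% of CD4+ Tconv and 0.222% of CD8+ T cells. Shares by gate were not computed for Csf3, Il34, Csf2rb, Csf2rb2, Il5ra and Csf3r. Of the list of 10 family ligands and receptors that holds them, at most 2 could be measured in any comparison of positive and negative cells.

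Markers of other cell types were counted in the positive cells. The count table held 2 of 4 B cell, 2 of 6 stromal and endothelial, 2 of 6 mast cell and basophil and 1 of 4 erythroid markers listed. Among the 247 Csf2+ cells, 4 had a UMI of the 3 myeloid markers measured of 8 listed (8.78 expected at their depth and library), 4 of the B cell markers (5.88), 6 of the NK markers (5.30), 5 of the γδ T markers (6.81) and 9 of the stromal and endothelial markers (14.2). None had a UMI of the melanoma, erythroid or mast cell and basophil markers. With 0.545, 0.0939 and 0.190 such cells expected, their absence could not be judged. Among the 485 Csf1+ cells the same counts were 8 (16.4 expected), 10 (11.1), 6 (9.92), 10 (12.3) and 17 (27.3), with 2 cells (0.384 expected) holding a mast cell and basophil marker. Of the 13 Il3+ cells, 1 had a myeloid marker UMI (0.671 expected), and the mast cell and basophil markers, with 0.0136 cells expected, could not be judged. T cell markers were present in 98.6% of Csf1+, 99.2% of Csf2+ and 100% of Il3+ cells.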

How the data were processed

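TCRβ+ T cells from 6 tumor samples were sequenced with the 10x Chromium 5′ kit. The table the authors deposited holds raw UMI counts (whole numbers) for each gene in each cell; per the study's methods the authors mapped reads to mm10 with Cell Ranger, merged the libraries and filtered cells in Seurat (detected genes ran from 201 to 2494 per cell), while the labels list mm9. The annotation used for counting is not given in the sources used here. Coordinates and promoters came from GENCODE M21 and RefSeq on GRCm38. Values of 1 naive T cell gene are not reported here.

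The genes and the gene lists were chosen with earlier results of these data known. Python 3.11.15, numpy 2.4.6, scipy 1.17.1 and pandas 2.3.3 were used. Cells were gated on transcripts. Expected counts were summed within library and depth quartile, except in the CD4+ Tconv over CD8+ T ratios, which were matched by library only. Where positive and negative cells were compared in UMIs, depth was taken without the gene that defined the positive cells. Intervals are exact 95% Poisson or Clopper-Pearson, covering counting error only. Named genes were those of the family, Il13, Ifng, 2 to 4 genes of each list with the largest and smallest ratios, and the 8 genes most alike. The scan was tested on simulated data. Because no cell could be tied to a sample, cells are not replicates and no p-value was computed. Alternatives were thinning to 1000 or 500 UMIs, stricter gates, other matching and leaving out each library. Totals were 1916305 to 5127776 UMIs per library.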

Additional observations from a re-analysis of the deposited data

How the results depend on the processing

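Of the 152 values recomputed under alternatives, 127 stayed within the counting interval of the value reported (or within 1.5 times for counts of genes), 24 moved out of it and 1 reversed. Not all of these could have moved, so the count is no measure of stability. Il3 was not found in libraries 1, 2 and 3, and leaving 1 of them out could not change an Il3 ratio. The share of CD4+ Tconv cells with Il3 was 0.171% when cells were thinned to 500 UMIs and 1.15% with at least 2 Cd4 UMIs, and 0.111% to 0.658% with 1 library left out, lowest without library 4. For Csf1 it was 6.04% and 3.08% thinned to 1000 and 500 UMIs, and 6.80% to 10.4% with 1 library left out. For Csf2 it was 3.19% and 2.05% thinned, 7.28% with at least 2 Cd4 UMIs, and 3.73% to 6.26% with 1 library left out. Lower shares after thinning follow from the fewer UMIs kept.

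The CD4+ Tconv over CD8+ T ratio of Il3 was 18.8 without the 5 cells with most UMIs, 14.8 with at least 2 gate UMIs and 6.15 to 9.38 with 1 library left out. The Csf2 ratio was 3.36 in cells, 5.01 without the 5 cells with most UMIs, 12.1 with at least 2 gate UMIs and 3.04 to 8.53 with 1 library left out. The Csf1 ratio stayed between 2.12 and 2.71. Il3 with Csf2 gave 6.86 in CD4+ Tconv cells and 15.0 to 19.2 with 1 library left out. With 1 library left out, Il3 with Csf1 ran from 0 to 2.51 and Il3 with Il13 from 0 to 8.88, each 0 without library 4, where all their shared cells lay. Csf2 with Il13 gave 4.74 matched by library and not depth, and 2.0 in CD4+ Tconv cells. All co-detection ratios recomputed with 10 depth bins were lower than with quartiles. They were 2.48 for Csf2 with Il13, 12.1 for Il3 with Csf2, 5.79 for Il3 with Il13 and 2.02 for Csf1 with Csf2. The causes were not tested.

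The alternatives for genes over 2-fold higher in Csf2+ cells were chosen after seeing the data: CD4+ Tconv 33 (without library 5) to 69, CD8+ T 48 to 63. No paired analysis was possible because no cell could be tied to a labelled PBS or DTx replicate, and CD4+ Tconv and CD8+ T cells are set side by side within libraries without a test because those values selected the genes. Il3 values rest on 13 cells, and the 97 Foxp3+ cells limit any statement about Treg cells.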

Other observations

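Some cells and genes outside the comparisons carried large counts and are given as values, chosen after their values were seen. Il31, a type 2 cytokine linked to itch, had 35 UMIs in 3 of the 247 Csf2+ cells, with 23 of them in 1 cell, and 25 UMIs in 2 of the 13 Il3+ cells. Penk, the proenkephalin gene, had 26 UMIs in 2 Il3+ cells, 22 of them in 1. An ungated cell of library 3 held 23 Csf2 UMIs among 574 UMIs in all, and 2 Il2 UMIs. A CD8+ T cell of library 5 held 27 Csf2 and 79 Xcl1 UMIs, and a CD4+ Tconv cell of the same library 11 Csf2, 15 Il13 and 43 Ccl1 UMIs. A library 4 cell with both Cd4 and Cd8 was the 1 cell with all 3 transcripts, with 8 Il3, 4 Csf1 and 16 Csf2 UMIs beside 38 Il4 UMIs.

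The 2 Il3+ cells without a Csf2 UMI, both of library 4, held 25 and 16 Il4 UMIs, 9 and 4 Il13 UMIs and no Ifng, and both had Csf1 UMIs (1 and 2).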
